A study of Mus musculus with 16 samples.

Results

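The 9 genes described here encode the TGF-β ligands (*Tgfb1*, *Tgfb2*, *Tgfb3*), the receptors (*Tgfbr1*, *Tgfbr2*, *Tgfbr3*), 2 latent TGF-β binding proteins (*Ltbp1*, *Ltbp2*) and the inhibitory SMAD *Smad7*. They were chosen by gene symbol, with earlier results of these data known. All 9 were found among the 18990 genes of a log2 CPM table of 16 bulk RNA-seq libraries. Each also passed the expression filter that left 14028 genes for testing. In the libraries of day 3, every one of the 9 was on average higher after knockdown of *Wdr5*, *Brca1* or *Bard1* than in the control, with *Tgfb3* and *Ltbp2* among the genes that moved most and *Tgfbr1* among those that moved least.

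The cells were primary wild-type BL6 mouse embryonic fibroblasts (MEFs) that carried lentiviruses for a doxycycline-inducible OSKM cassette (STEMCCA, with *Oct4*, *Sox2*, *Klf4* and *c-Myc*) and its activator rtTA. They were transfected with 40 nM of a non-targeting (nt) siRNA or of pooled siRNAs against *Wdr5*, *Brca1* or *Bard1*, and reprogramming was then induced with doxycycline. RNA was collected at day 3 and day 6, which gives 8 groups of 2 libraries from independent experiments. The groups therefore compare si*Wdr5*, si*Brca1* and si*Bard1* with the nt control of the same day, and the 3 comparisons of a day share the same 2 control libraries. In all 8 groups, the nt control included, the medium held 2 µg/mL doxycycline, 3 µM of the GSK3 inhibitor Chiron, 50 µg/mL ascorbic acid, LIF, serum and 0.25 µM Alk5i, an inhibitor of TGF-β receptor I. Every value below is thus from cells grown with Alk5i, no group without it was analysed here, and how far the receptor kinase was inhibited was not measured. The libraries are of whole cultures, in which fewer cells of a type and less RNA per cell cannot be told apart.

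TGF-β is secreted in a latent form. Each ligand is made as a precursor whose propeptide stays wrapped around the mature cytokine, and latent TGF-β binding proteins such as LTBP1 tie this complex to the extracellular matrix until integrins, proteases or thrombospondin release the ligand. The free ligand binds the type II receptor TGFBR2, which recruits and phosphorylates the type I receptor TGFBR1 (ALK5), while the co-receptor TGFBR3 (betaglycan) presents ligand and matters most for TGF-β2. The receptor complex phosphorylates SMAD2 and SMAD3, and SMAD7, itself a target of the pathway, closes a negative feedback loop on TGFBR1. In fibroblasts the pathway drives matrix production and a contractile, mesenchymal state. During reprogramming it opposes the mesenchymal-to-epithelial transition, and receptor I inhibitors are added to reprogramming media for that reason.

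The 3 ligands differ at the point where integrins take hold of the latent complex. The propeptides of TGF-β1 and TGF-β3 carry the RGD integrin-binding motif, and that of TGF-β2 does not. The coding bases are shown here because *Tgfb3* and *Tgfb2* both rose in each knockdown at day 3 and only one of these ligands has the motif. In these 45-base windows of the GENCODE transcripts, read 5′ to 3′, capitals mark the 9 bases that encode RGD and, in *Tgfb2*, the 9 bases aligned to them. The *Tgfb1* window lies on chr7:25696995-25697168 (plus strand, mm10) and spans the junction of exons 4 and 5 of 7. Those of *Tgfb2* (chr1:186630735-186630779) and *Tgfb3* (chr12:86062147-86062191), both on the minus strand, lie in exon 5 of 7.
Tgfb1: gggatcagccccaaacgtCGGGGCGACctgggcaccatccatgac
Tgfb2: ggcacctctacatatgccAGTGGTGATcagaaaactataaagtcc
Tgfb3: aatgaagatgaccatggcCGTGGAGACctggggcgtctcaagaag

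The libraries held 11169738 to 26832534 reads, so that 3 reads lay at 0.115 to 0.260 CPM, and the 9 genes had from 165 to 10699 reads in a library. CPM here is 2 to the power of the deposited value. At day 3 each siRNA had lowered its own transcript (*Wdr5* −1.31, *Brca1* −1.57 and *Bard1* −0.62 on the log2 scale; limma, adjusted p = 3.02e-06, 7.90e-05 and 0.0422). *Bard1* stood lower still in si*Brca1* (−1.38) than in si*Bard1* (difference −0.76, adjusted p = 0.0136). At day 6 the differences for *Wdr5*, *Brca1* and *Bard1* under their own siRNA were −0.27, 0.01 and 0.11, and none passed (adjusted p = 0.189, 0.988 and 0.853). The 9 fibroblast markers (*Col1a1*, *Col1a2*, *Pdgfra*, *Pdgfrb*, *Thy1*, *Dcn*, *Lum*, *Postn* and *Twist2*) were all in the table and summed to 5043 to 5985 CPM in the nt control at day 3 and 2856 to 2997 CPM at day 6, while the 6 epithelial markers summed to 44.2 to 66.2 and 566 to 762 CPM. Counted gene by gene, 6 of the 9 fibroblast markers were higher and 2 lower in the nt control at day 6 than at day 3. Of all genes tested 19% were higher and 27.1% lower. Of the macrophage markers *Ptprc*, *Fcer1g* and *C1qa* were not in the table and the other 5 summed to 7.24 to 23.3 CPM in all groups. Of the endothelial markers *Tie1* was not in the table, and the other 5 summed to 15.9 to 59.9 CPM.

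In the nt control at day 3 the anchor of the latent complex, *Ltbp1*, and the co-receptor *Tgfbr3* were the most abundant of the 9 transcripts per unit of length. Per kilobase of the longest protein-coding transcript, *Ltbp1* stood at 40.8 ± 0.794 CPM (mean ± SD, n = 2), *Tgfbr3* at 25.4 ± 0.0986, *Tgfbr2* at 19.6 ± 1.86, *Tgfb3* at 19.5 ± 1.92 and *Ltbp2* at 18.7 ± 2.46. *Tgfb2* followed at 9.95 ± 1.14, *Smad7* at 7.81 ± 0.375, *Tgfbr1* at 5.75 ± 0.145 and *Tgfb1* at 5.34 ± 0.392 CPM per kb. The neighbours *Tgfbr2*, *Tgfb3* and *Ltbp2* differed by less than their SDs, and *Tgfbr1* and *Tgfb1* by less than the sum of theirs. The level of *Tgfb1* depends most on the length used: over all its annotated exons, one of them a retained intron, it would be 2.31 CPM per kb.

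From day 3 to day 6 the nt control changed its mix of ligands. *Tgfb3* had 61.3 and 70.5 CPM at day 3 and 22.3 and 18.9 at day 6. *Tgfb1* had 11.0 and 12.2 CPM at day 3 and 21.6 and 19.7 at day 6. The 2 days did not overlap for either gene, so *Tgfb3* fell by 1.68 on the log2 scale (SE 0.18; limma, adjusted p = 5.86e-06) and *Tgfb1* rose by 0.83 (SE 0.22, adjusted p = 0.00596). Among all genes tested 19% rose and 27.1% fell over these days, and of the 9 genes 1 rose and 1 fell. The other 7 did not pass: *Tgfb2* stood at −0.17, *Tgfbr1* at −0.34, *Tgfbr2* at −0.03, *Tgfbr3* at 0.07, *Ltbp1* at −0.26, *Ltbp2* at 0.06 and *Smad7* at −0.24. In share of the 3 ligands' CPM per kb, *Tgfb3* went from 55.9% ± 3.63 to 24.9% ± 1.87 and *Tgfb1* from 15.4% ± 0.611 to 39.0% ± 0.987 (mean ± SD, n = 2), whereas *Tgfb2* had 28.7% ± 4.24 and 36.1% ± 2.86. The order of the ligands in CPM per kb turned from *Tgfb3*, *Tgfb2*, *Tgfb1* at day 3 to *Tgfb1* at 9.50 ± 0.643, *Tgfb2* at 8.79 ± 0.324 and *Tgfb3* at 6.08 ± 0.714 at day 6, where *Tgfb1* and *Tgfb2* differed by less than the sum of their SDs. With the length of all annotated *Tgfb1* exons that gene would be the lowest of the 3 at day 6 as well, at 4.10 CPM per kb.

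**Figure D1:**
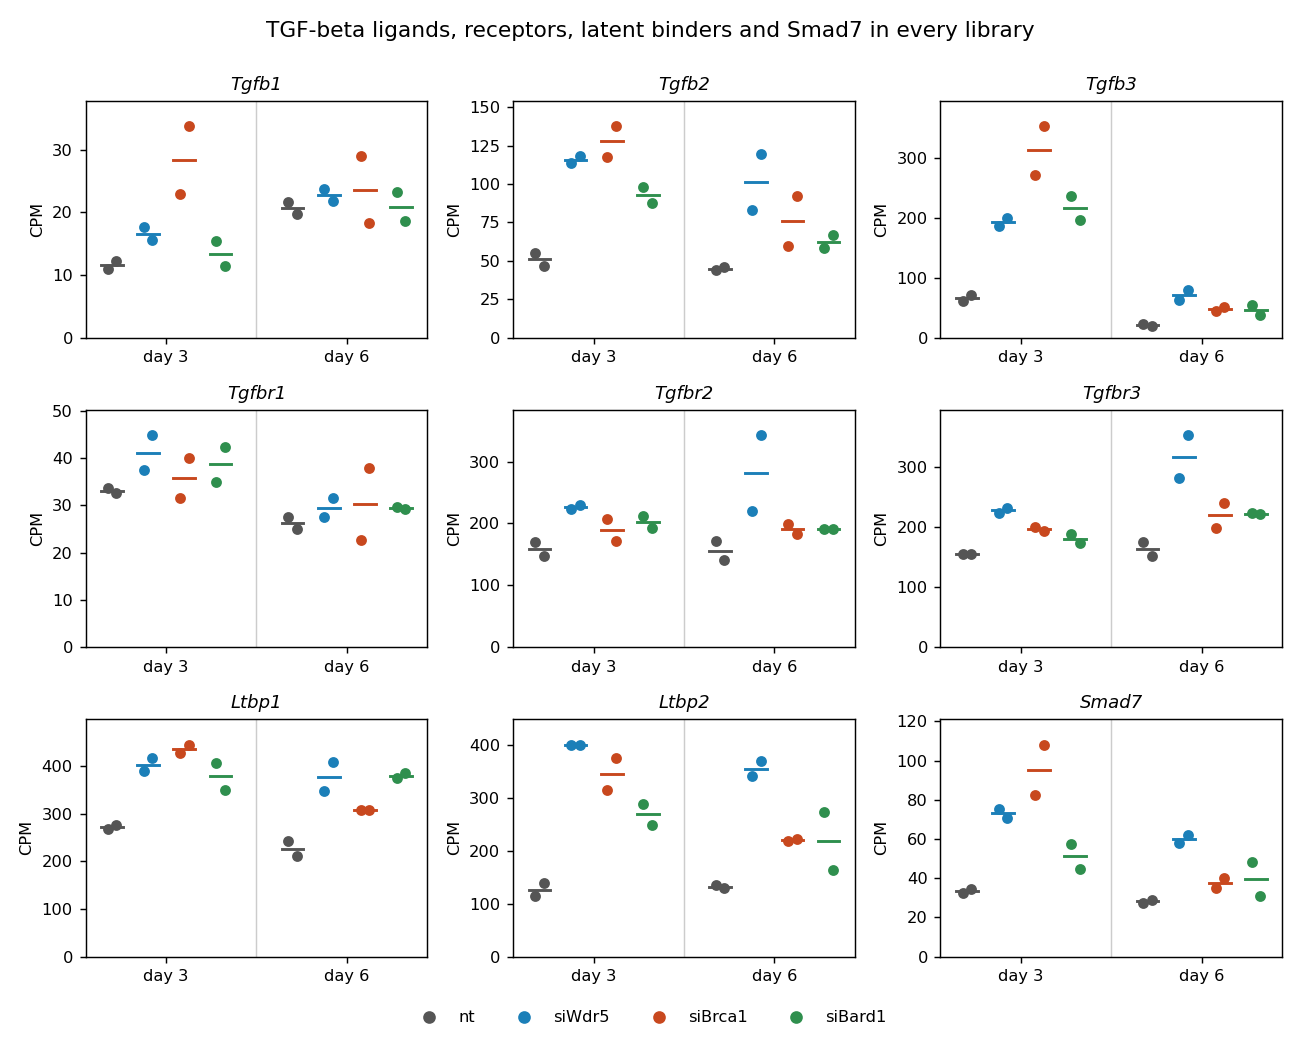
CPM (y axis, from 0, a separate scale for each gene) of the 9 genes in every library at day 3 and day 6, with points for the 2 libraries of a group (replicate 1 left, replicate 2 right) and a bar for their mean. *Tgfb3* at day 3 runs from 61.3 CPM in the nt control to 353 in si*Brca1*, and its nt control at day 6 is at 18.9 to 22.3.

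At day 3 *Tgfb2*, *Tgfb3*, *Ltbp1*, *Ltbp2* and *Smad7* were higher in each of the 3 knockdowns, *Tgfb1* in si*Brca1*, *Tgfbr2* in si*Wdr5* and *Tgfbr3* in both of these, while *Tgfbr1* did not pass in any. In si*Wdr5* 7 of the 9 genes were higher at adjusted p < 0.05 and none lower, against 18.3% higher and 16.8% lower of all genes tested. In si*Brca1* 7 of 9 were higher, against 25.4% (21.8% lower), and in si*Bard1* 5 of 9, against 8.67% (5.87% lower). The median log2-fold change of the 9 was 0.57, 1.26 and 0.47 in the same order, beside −0.04, 0.00 and −0.02 over all genes. With an absolute log2-fold change above 1 as a further condition, 4, 5 and 2 of the 9 passed, against 7.05%, 13.4% and 2.24% of all genes. Both knockdown libraries lay above both nt control libraries for 9 genes in si*Wdr5*, 8 in si*Brca1* (not *Tgfbr1*) and 8 in si*Bard1* (not *Tgfb1*), as did 34.9%, 38.8% and 30.2% of all genes tested. Centring every library on its median gene and quantile normalization left all 9 directions as they were, with 0.089 (*Tgfbr1* in si*Brca1*) as the lowest value.

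Of the ligands, *Tgfb3*, the isoform best known from palate and lung development, moved most. In si*Wdr5* it had 186 and 199.9 CPM, in si*Brca1* 272 and 353, and in si*Bard1* 237 and 196, against 61.3 and 70.5 in the nt control. All 6 knockdown libraries were thus above both controls, and the 2 of si*Brca1* were above the other 4. The log2-fold changes were 1.55 in si*Wdr5* (SE 0.14; limma, adjusted p = 4.77e-06), 2.24 in si*Brca1* (adjusted p = 2.84e-07) and 1.71 in si*Bard1* (adjusted p = 1.73e-05), and each passed under every alternative run. In the annotation 12.4% of the exon bases of *Tgfb3* are shared with genes on the opposite strand, of which *Gm37804* had at most 10 reads in a library and *Gm48008* was not in the table.

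*Tgfb2*, the isoform that needs betaglycan for efficient receptor binding, had 114 and 118 CPM in si*Wdr5*, 118 and 138 in si*Brca1* and 97.8 and 87.4 in si*Bard1*, against 55.0 and 46.8 in the nt control. No knockdown library overlapped the controls. On the log2 scale it rose by 1.19 in si*Wdr5* (SE 0.12; limma, adjusted p = 1.29e-05), by 1.33 in si*Brca1* (adjusted p = 3.78e-06) and by 0.87 in si*Bard1* (adjusted p = 0.000574). Each passed in every refit, and that in si*Bard1* lay under the log2-fold change threshold of 1.

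*Tgfb1*, the most widely expressed isoform in the body, was the lowest of the 3 here and rose in a single knockdown. It had 22.9 and 33.8 CPM in si*Brca1*, 17.7 and 15.5 in si*Wdr5* and 15.3 and 11.4 in si*Bard1*, against 11.0 and 12.2 in the nt control. The si*Bard1* libraries overlapped the controls, and the 2 si*Brca1* libraries were far apart. The log2-fold change was 1.26 in si*Brca1* (SE 0.19; limma, adjusted p = 0.000172), 0.51 in si*Wdr5* (adjusted p = 0.0538) and 0.19 in si*Bard1* (adjusted p = 0.548). In si*Wdr5* it passed under 5 of 14 alternatives (adjusted p from 0.00360 to 0.273).

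The ligand total followed *Tgfb3*. Summed over the 3 genes, the nt control had 34.8 ± 1.17 CPM per kb at day 3 (mean ± SD, n = 2), si*Wdr5* 87.3 ± 2.78, si*Brca1* 130.3 ± 23.3 and si*Bard1* 88.2 ± 11.4. The share of *Tgfb3* was 65.3% ± 1.23 in si*Wdr5*, 70.8% ± 0.383 in si*Brca1* and 72.5% ± 0.464 in si*Bard1*, above the 53.4% and 58.5% of the control libraries. That of *Tgfb1* was 8.76% ± 1.08, 9.90% ± 0.947 and 6.92% ± 0.573, below its 14.9% and 15.8% in the controls. These shares are descriptions and were not tested.

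**Figure D2:**
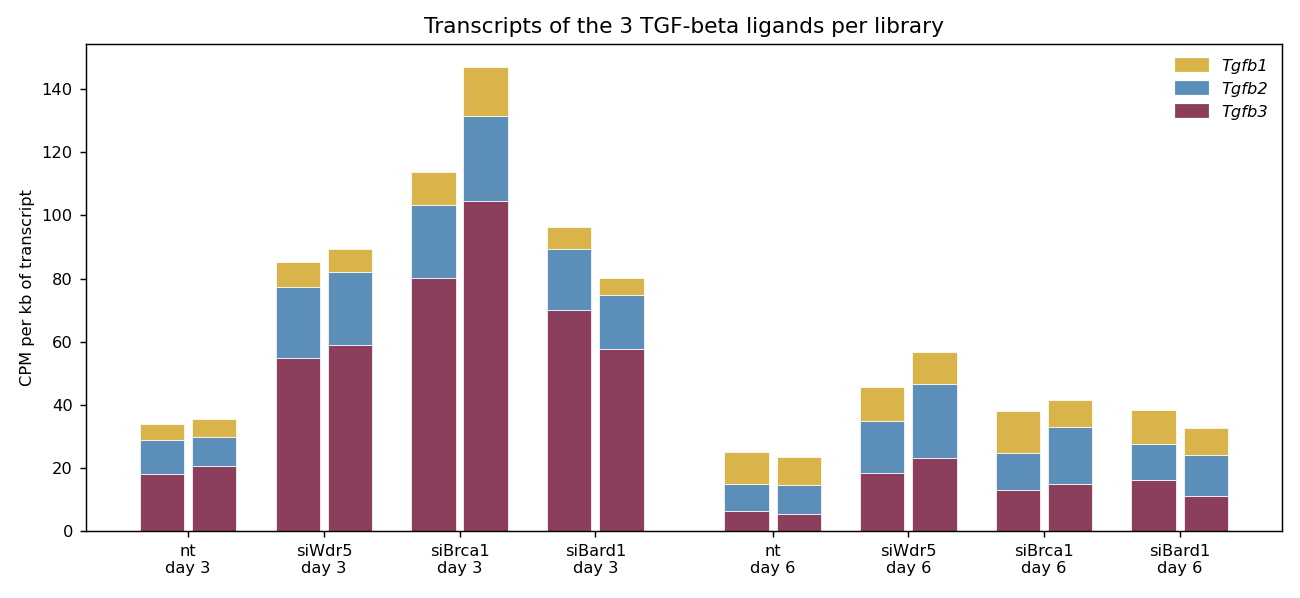
CPM per kilobase of transcript (y axis, from 0) of *Tgfb3*, *Tgfb2* and *Tgfb1*, stacked, in each of the 16 libraries, with replicate 1 left and replicate 2 right in each group. The stack is 33.9 and 35.6 high in the nt control at day 3, 114 and 147 in si*Brca1* at day 3, and 25.1 and 23.6 in the nt control at day 6.

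RefSeq promoters (GRCm38.p6) of 6 of the 9 genes were used. Those of *Tgfb1* and *Tgfb2* are shown because the first rose at day 3 in 1 knockdown and the second in all 3. Printed are the 250 bases upstream of each start, 5′ to 3′ on the gene's strand, for *Tgfb1* chr7:25686752-25687001 (plus strand) and for *Tgfb2* chr1:186705990-186706239 (minus strand). Searched on both strands over the whole 300 bases of each promoter were the letters TGANTCA (AP-1), TGACGTCA (CRE), CACGTG (E-box), GGAATG (TEAD), CAGAC (SMAD box) and GGGCGG (SP1/KLF), and capitals mark the matches, none of which overlapped another.
Tgfb1: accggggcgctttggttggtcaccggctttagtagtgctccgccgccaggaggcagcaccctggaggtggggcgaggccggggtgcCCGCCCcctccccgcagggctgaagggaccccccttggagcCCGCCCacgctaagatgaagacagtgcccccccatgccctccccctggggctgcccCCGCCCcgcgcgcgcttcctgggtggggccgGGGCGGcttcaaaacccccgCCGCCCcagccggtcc
Tgfb2: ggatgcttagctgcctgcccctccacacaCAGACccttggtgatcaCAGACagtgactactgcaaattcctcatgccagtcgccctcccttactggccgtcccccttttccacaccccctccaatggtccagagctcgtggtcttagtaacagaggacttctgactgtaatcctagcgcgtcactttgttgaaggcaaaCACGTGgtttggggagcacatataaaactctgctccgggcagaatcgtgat

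The *Tgfb1* window above holds 5 matches to the SP1/KLF letters and none to the others. That of *Tgfb2* holds 2 SMAD box matches and, 51 bases before the start, 1 E-box. In all 32851 promoters of the table, 35.7% held the SP1/KLF letters, 49.6% the SMAD box, 7.15% the E-box, 7.81% AP-1, 1.79% CRE and 14.7% TEAD. These shares are over the whole 300 bases of a promoter, not over the 250 bases printed above. Such matches describe the letters and do not show that a factor binds.

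**Figure D3:**
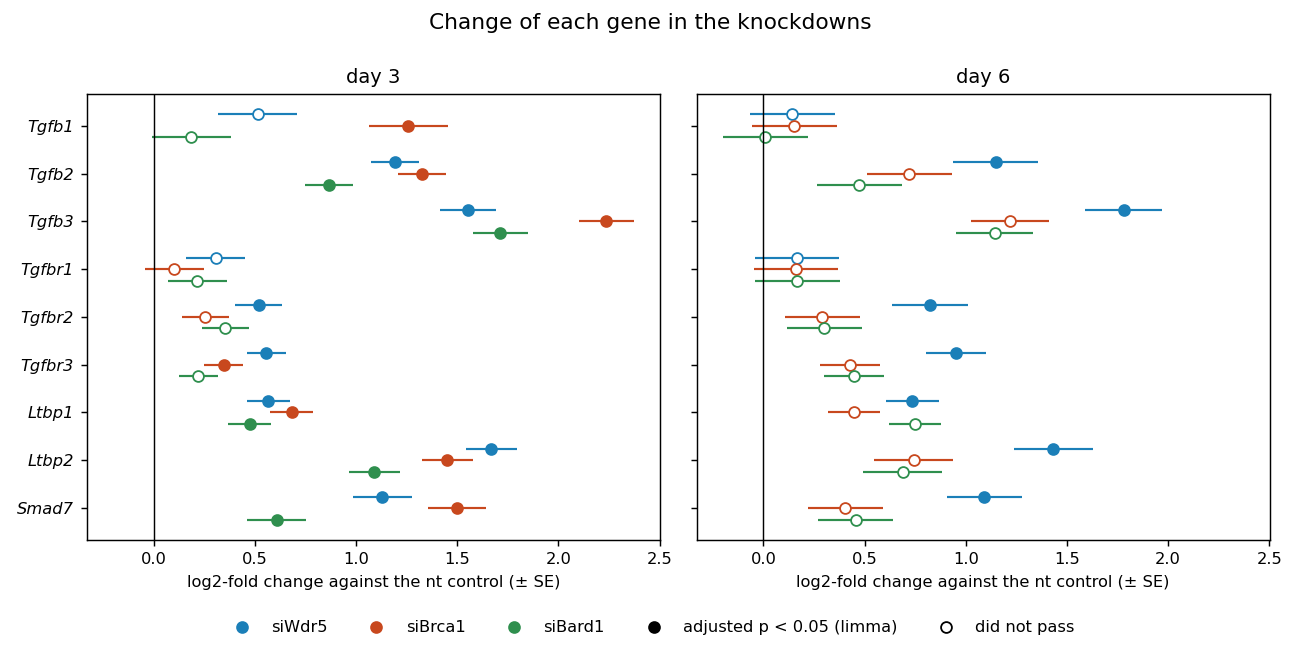
Log2-fold change against the nt control of the same day (x axis, with SE bars) for each gene (y axis) in si*Wdr5*, si*Brca1* and si*Bard1*, at day 3 (left) and day 6 (right). Filled points passed adjusted p < 0.05 (limma). *Tgfb3* in si*Brca1* goes from 2.24 at day 3 to 1.22 at day 6, whereas in si*Wdr5* it is at 1.55 and 1.78.

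Of the receptors, 2 passed in si*Wdr5*, 1 in si*Brca1* and none in si*Bard1*. *Tgfbr1*, the kinase that Alk5i blocks, had 37.4 and 44.8 CPM in si*Wdr5*, 31.6 and 40.0 in si*Brca1* and 34.9 and 42.4 in si*Bard1*, against 33.7 and 32.5 in the nt control. Its changes of 0.31, 0.10 and 0.22 did not pass (limma, adjusted p = 0.119, 0.592 and 0.338). The type II receptor *Tgfbr2*, which binds the ligand first, had 223 and 230.2 CPM in si*Wdr5*, 207 and 172 in si*Brca1* and 212 and 192 in si*Bard1*, against 169 and 148. It was higher by 0.52 in si*Wdr5* (SE 0.12, adjusted p = 0.00387), and stood at 0.25 in si*Brca1* (adjusted p = 0.0858) and 0.35 in si*Bard1* (adjusted p = 0.0559), which did not pass. Without nt control replicate 2 the change of *Tgfbr2* in si*Wdr5* was 0.42 and did not pass (adjusted p = 0.0672), and without si*Brca1* replicate 2 that in si*Brca1* was 0.39 and passed (adjusted p = 0.0130).

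The co-receptor *Tgfbr3* had 224 and 231 CPM in si*Wdr5*, 199.8 and 193 in si*Brca1* and 187 and 173 in si*Bard1*, against 154 and 155 in the nt control. The 2 controls were nearly equal, and all knockdown libraries were above them. It rose by 0.56 in si*Wdr5* (SE 0.10; limma, adjusted p = 0.000771) and 0.35 in si*Brca1* (adjusted p = 0.00940), and stood at 0.22 in si*Bard1* (adjusted p = 0.136). The rise in si*Brca1* did not pass without nt control replicate 1 (0.34, adjusted p = 0.0789) or replicate 2 (0.35, adjusted p = 0.0696), or after quantile normalization (0.20). Of the exon bases of *Tgfbr3*, 4.54% are shared with *Gm43422* on the same strand, which had at most 59 reads in a library.

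Of the latent binders, *Ltbp2*, a microfibril protein that unlike LTBP1 does not bind latent TGF-β itself, changed more. It had 401 and 401 CPM in si*Wdr5*, 316 and 376 in si*Brca1* and 289 and 249 in si*Bard1*, against 115 and 138 in the nt control, so that every knockdown library was well above the controls. It rose by 1.67 in si*Wdr5* (SE 0.12; limma, adjusted p = 2.73e-06), by 1.45 in si*Brca1* (adjusted p = 2.91e-06) and by 1.09 in si*Bard1* (adjusted p = 0.000206), and each passed under every alternative run. In the annotation 9.34% of its exon bases are shared with *D030025P21Rik* on the opposite strand, which had at most 76 reads.

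*Ltbp1*, which is bound covalently to the propeptide and anchors it in the matrix, had 389.8 and 417 CPM in si*Wdr5*, 428 and 446 in si*Brca1* and 407 and 351 in si*Bard1*, against 268 and 276 in the nt control. The groups did not overlap, and the rises were 0.57 in si*Wdr5* (SE 0.11; limma, adjusted p = 0.00129), 0.68 in si*Brca1* (adjusted p = 0.000185) and 0.47 in si*Bard1* (adjusted p = 0.0110). *Ltbp1* in si*Bard1* passed under 10 of 14 alternatives. The rise in si*Bard1* did not pass without nt control replicate 1 (0.45, adjusted p = 0.126), nt control replicate 2 (0.49, adjusted p = 0.0882) or si*Bard1* replicate 1 (0.37, adjusted p = 0.0618), and the 2 others passed in every refit. All 3 lay under the log2-fold change threshold of 1.

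*Smad7*, the feedback inhibitor, had 75.3 and 70.8 CPM in si*Wdr5*, 82.2 and 108 in si*Brca1* and 57.6 and 44.9 in si*Bard1*, against 32.3 and 34.5 in the nt control. No group overlapped the controls. It was higher by 1.13 in si*Wdr5* (SE 0.15; limma, adjusted p = 8.59e-05), by 1.50 in si*Brca1* (adjusted p = 6.29e-06) and by 0.61 in si*Bard1* (adjusted p = 0.0147). *Smad7* in si*Bard1* passed under 9 of 14 alternatives. In si*Bard1* it did not pass without nt control replicate 1 (0.56, adjusted p = 0.128), nt control replicate 2 (0.66, adjusted p = 0.0688) or si*Bard1* replicate 1 (0.43, adjusted p = 0.123). For si*Bard1* as a whole, leaving out any one of these 3 libraries lowered the count of higher genes, and *Tgfb2*, *Tgfb3* and *Ltbp2* remained. The share of all genes in these refits was not counted.

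Between the knockdowns, *Tgfb1* and *Tgfb3* were higher in si*Brca1* than in either of the others. *Tgfb1* was higher in si*Brca1* than in si*Wdr5* by 0.75 (SE 0.19; limma, adjusted p = 0.0196) and *Tgfb3* by 0.68 (adjusted p = 0.00463), 2 of the 9 genes against 10.2% of all genes higher and 5.47% lower, whereas *Tgfb2* stood at 0.14 and did not pass (adjusted p = 0.467). Compared with si*Bard1*, si*Brca1* had more *Tgfb1* (1.07, adjusted p = 0.00447), *Tgfb2* (0.46, adjusted p = 0.0156), *Tgfb3* (0.52, adjusted p = 0.0164) and *Smad7* (0.89, adjusted p = 0.00420), 4 of 9 against 13.1% higher and 8.33% lower. Against si*Bard1*, si*Wdr5* had more *Tgfbr3* (0.34, adjusted p = 0.0468), *Ltbp2* (0.58, adjusted p = 0.0124) and *Smad7* (0.52, adjusted p = 0.0402), 3 of 9 against 4.85% higher and 3.78% lower. None of the 9 was lower in the first-named group of any pair. The receptors *Tgfbr1* and *Tgfbr2* and the binder *Ltbp1* did not pass in a pair.

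These differences between knockdowns rest on few libraries. Moderation without a trend on expression left 0 of the 9 genes in each pair. In si*Brca1* against si*Wdr5* the count fell without either si*Wdr5* library or si*Brca1* replicate 2, and rose without si*Brca1* replicate 1. In si*Brca1* against si*Bard1* it fell without si*Brca1* replicate 2 or si*Bard1* replicate 2. In si*Wdr5* against si*Bard1* it fell without either si*Wdr5* library or si*Bard1* replicate 2. The share of all genes in these refits was not counted.

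At day 6 genes of the 9 passed at adjusted p < 0.05 in si*Wdr5* alone, while hardly any gene of the whole table passed in si*Brca1* or si*Bard1*. A loss of the rise in those knockdowns is therefore not shown by these counts. There 7 of the 9 genes were higher, against 16.1% higher and 5.7% lower of all genes, with a median log2-fold change of 0.95 beside 0.08 over all genes. In si*Brca1* 0 of the 9 passed (limma), as did 0% of all genes in either direction, although 5 of the 9 and 1123 of all genes had an unadjusted p under 0.05. limma-voom on the recovered reads also passed 0 of the 9 and 0 of all genes. In si*Bard1* 0 of the 9 passed as well, with 6 under 0.05 before adjustment beside 1908 of all 14028 genes. After adjustment 0.0784% of all genes passed as higher and 0% as lower. limma-voom likewise passed 0 of the 9 there. All 9 fitted changes were above 0 in both, with medians of 0.43 and 0.46. The lowest of them, *Tgfb1* in si*Bard1* at 0.0082, became −0.065 with centred and −0.058 with quantile-normalized libraries.

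*Tgfb3* at day 6 had 62.9 and 78.9 CPM in si*Wdr5*, 44.5 and 51.2 in si*Brca1* and 54.8 and 37.4 in si*Bard1*, against 22.3 and 18.9 in the nt control. No knockdown library overlapped the controls. The change was 1.78 in si*Wdr5* (SE 0.19; limma, adjusted p = 0.00210), 1.22 in si*Brca1* (adjusted p = 0.238) and 1.14 in si*Bard1* (adjusted p = 0.0590). With all 16 libraries in 1 fit *Tgfb3* passed in both of the last 2, and its adjusted p ranged from 0.0137 to 0.971 in si*Brca1* and from 0.00518 to 0.521 in si*Bard1* among all alternatives. Without si*Bard1* replicate 2 the change in si*Bard1* was 1.42 and passed (adjusted p = 0.0128).

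*Tgfb2* had 83.1 and 119 CPM in si*Wdr5*, 59.8 and 91.9 in si*Brca1* and 58.6 and 66.6 in si*Bard1* at day 6, against 43.8 and 46.1. It was higher by 1.15 in si*Wdr5* (SE 0.21; limma, adjusted p = 0.00746), and its values of 0.72 and 0.47 in si*Brca1* and si*Bard1* did not pass (adjusted p = 0.478 and 0.359). *Tgfb1* had 23.8 and 21.8, 28.9 and 18.2, and 23.2 and 18.6 CPM in the same order, against 21.6 and 19.7 in the nt control, with changes of 0.14, 0.15 and 0.01. The control level at day 6 was above that of si*Wdr5* and si*Bard1* at day 3, and *Tgfb1* did not pass in any knockdown at day 6 under any alternative run.

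Receptors, binders and *Smad7* at day 6 divided in the same way. In si*Wdr5*, *Tgfbr2* had 221 and 342 CPM against 171 and 141 in the nt control, and *Tgfbr3* 281 and 352 against 174 and 151. The 2 si*Wdr5* libraries were far apart in *Tgfbr2*, and replicate 2, the deepest library of all with 26832534 reads, was higher in both genes. Their changes were 0.82 (SE 0.19; limma, adjusted p = 0.0143) and 0.95 (SE 0.15, adjusted p = 0.00417), while *Tgfbr1* with 27.4 and 31.5 CPM against 27.5 and 25.0 stood at 0.17 (adjusted p = 0.588). *Ltbp1* had 348 and 409 CPM in si*Wdr5* against 243 and 211, *Ltbp2* 341 and 371 against 135 and 129, and *Smad7* 58.0 and 62.2 against 27.5 and 28.9. These 3 groups did not overlap their controls, and *Ltbp1* rose by 0.74 (adjusted p = 0.00646), *Ltbp2* by 1.43 (adjusted p = 0.00362) and *Smad7* by 1.09 (adjusted p = 0.00578).

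The calls at day 6 in si*Wdr5* depended on single libraries. Fewer of the 9 genes passed without nt control replicate 2 or without si*Wdr5* replicate 2. In the latter refit *Ltbp2* stood at 1.37 and *Smad7* at 1.04, beside 1.43 and 1.09 with all libraries. How many of all genes passed in these refits was not counted. In si*Brca1* and si*Bard1* the range over both was 0.40 to 0.75 for *Ltbp1*, *Ltbp2* and *Smad7*, 0.29 to 0.45 for *Tgfbr2* and *Tgfbr3* and 0.16 to 0.17 for *Tgfbr1*. The largest of these was *Ltbp1* in si*Bard1*, at 376 and 385 CPM against 243 and 211 (0.75, SE 0.13, adjusted p = 0.0618). *Ltbp2* in si*Bard1* had 274 and 165 CPM, and without its replicate 2 the change was 1.06 and passed (adjusted p = 0.0215).

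Whether the change itself differed between the days was tested as an interaction in all 16 libraries. In si*Brca1* the day 6 change was smaller than the day 3 change for *Tgfb1* by 1.11 on the log2 scale (−1.11, SE 0.31; limma, adjusted p = 0.0215), for *Tgfb3* (−1.02, SE 0.25, adjusted p = 0.0121) and for *Smad7* (−1.09, SE 0.25, adjusted p = 0.00898). That is 3 of the 9 genes, against 10.3% of all genes with a lower and 10.3% with a higher change. Among 17 alternatives, *Tgfb1* passed under 12, *Tgfb3* under 14 and *Smad7* under 16. *Ltbp2* (−0.71, adjusted p = 0.0549) and *Tgfb2* (−0.61, adjusted p = 0.109) did not pass, and the 3 receptors stood between 0.04 and 0.08. In the same libraries *Brca1* itself had a day 6 change above its day 3 change, by 1.58 (adjusted p = 0.00390). The part of this in the result was not tested.

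Without si*Brca1* day 3 replicate 2, the library highest in all 3 of these genes, none of them passed: *Tgfb1* stood at −0.82 (limma, adjusted p = 0.123), *Tgfb3* at −0.83 (adjusted p = 0.0725) and *Smad7* at −0.90 (adjusted p = 0.0544). *Tgfb1* and *Tgfb3* were also lost without nt day 3 replicate 1 (−1.03, adjusted p = 0.0822, and −0.92, adjusted p = 0.0597) and without nt day 6 replicate 1 (−1.04, adjusted p = 0.0756, and −0.90, adjusted p = 0.0564), and *Tgfb1* without si*Brca1* day 6 replicate 2 (−0.77, adjusted p = 0.0810). In si*Wdr5* 0 of the 9 interactions passed (limma and limma-voom), and 1 of the 9 had an unadjusted p under 0.05 beside 3323 of all 14028 genes, against 3.4% higher and 1.03% lower of all genes. The same held in si*Bard1* (0 of 9 with both tools, 1 under 0.05 unadjusted beside 2694 of all genes), against 0.0214% and 0.0285%. In si*Wdr5* the median of all genes was 0.12 in this contrast, and after centring it was −0.019 and 0 of the 9 passed as well.

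Over all 16 libraries, likeness was measured as the root mean square distance between 2 genes after each was centred on its mean log2 CPM. Among the 9 genes *Tgfbr2* and *Tgfbr3* were the closest pair (0.16), followed by *Tgfb2* and *Smad7* (0.25), *Ltbp1* and *Tgfbr2* (0.25) and *Ltbp2* and *Smad7* (0.27). *Tgfb1* and *Tgfb3* were the farthest (1.36). Among all other genes tested, those nearest *Tgfb3* were *Tpm2* (0.19), a tropomyosin of contractile filaments, *Sorbs2* (0.21), an adaptor of the actin cytoskeleton, and *Col8a1* (0.25), a short-chain collagen. Nearest *Tgfb2* were *Prnp* (0.16), the prion protein, *Cobll1* (0.16) and *Pdgfc* (0.18), a PDGF ligand, and nearest *Tgfb1* were *Uap1l1* (0.16), *Rilpl1* (0.17) and *Ctsf* (0.18), a lysosomal cysteine protease. The libraries share their controls and days, and these distances are descriptions.

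Genes around the ligands were examined in lists, which were chosen with earlier results of these data known. Of 15 tested matrix anchors and activators of latent TGF-β, 11 were higher and 2 lower in si*Wdr5* at day 3. In si*Brca1* these counts were 11 and 1, and in si*Bard1* 5 and 1, with medians of 0.56, 0.70 and 0.22 in the 3 knockdowns. Of all genes 18.3%, 25.4% and 8.67% were higher and 16.8%, 21.8% and 5.87% lower. *Thbs1*, thrombospondin 1, which can activate latent TGF-β, went from 2684 and 3088 CPM in the nt control libraries to between 8901 and 9163 in si*Wdr5* (log2-fold change 1.65), and by 1.96 in si*Brca1* and 0.99 in si*Bard1* (limma, all passed). *Lrrc32* (GARP), which holds latent TGF-β on the cell surface, rose by 1.48, 1.82 and 0.82, and the membrane protease *Mmp14* by 0.77, 1.09 and 0.65. Against the direction of the list, *Itgb3*, the β3 subunit of an RGD-binding integrin, fell by 0.77, 0.72 and 0.83, from about 15.1 CPM in the nt control.

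Of 9 co-receptors and extracellular ligand binders 7 were higher and 1 lower in si*Wdr5* at day 3. In si*Brca1* the counts were 7 and 1, and in si*Bard1* 5 and 1 (medians 0.96, 0.78 and 0.56). Higher among all genes were 18.3%, 25.4% and 8.67%, and lower 16.8%, 21.8% and 5.87%. The small proteoglycans *Bgn* (1.37, 1.59 and 0.80) and *Fmod* (1.65, 1.35 and 0.73), which bind TGF-β in the matrix, the type I receptor *Acvrl1* (0.79, 1.33 and 0.78) and the co-receptor *Nrp1* (1.24, 0.78 and 0.84) rose in each knockdown. *Dcn*, a proteoglycan of the same family, was higher in si*Wdr5* (0.75) and lower in si*Brca1* (−0.52) and si*Bard1* (−0.46). The marker lists moved beside these: the fibroblast markers, which include *Dcn*, summed to 10203 to 10389 CPM in si*Wdr5*, 8135 to 9170 in si*Brca1* and 6781 to 7890 in si*Bard1* at day 3, above the 5043 to 5985 of the nt control. Gene by gene, 8 of these 9 markers were higher and 0 lower in si*Wdr5* at day 3, 5 and 1 in si*Brca1*, and 1 and 1 in si*Bard1*. At day 6 they summed to 5916 to 8349, 3138 to 3672 and 4078 to 4416 CPM against 2856 to 2997. Then 3 were higher and 1 lower in si*Wdr5*, against 16.1% higher and 5.7% lower of all genes. In si*Brca1* and si*Bard1* 0 passed, where 0% and 0.0784% of all genes were higher and 0% lower. Above 0 were 3 of 9 in si*Brca1* (median −0.24) and 5 of 9 in si*Bard1* (median 0.19). At day 3 the epithelial markers summed to 20.8 to 21.0 CPM in si*Wdr5*, 23.9 to 36.4 in si*Brca1* and 36.9 to 45.2 in si*Bard1*, against 44.2 to 66.2 in the nt control. The 6 pluripotency markers summed to 2.01 to 2.75, 3.63 to 4.58 and 4.14 to 4.67 CPM in the same order, against 8.06 to 10.2, and the 5 macrophage markers in the table to 11.9 to 14.3, 16.7 to 17.9 and 8.11 to 8.95 CPM, against 7.24 to 8.20. Gene by gene at day 3, 3 of the 6 epithelial markers were lower in si*Wdr5* and 2 in si*Brca1*. Higher were 0 in si*Wdr5* and 1 in si*Brca1*, and 0 passed in either direction in si*Bard1*. Of the 4 pluripotency markers tested, 1 was lower and 0 higher in each knockdown. The part of cell composition in the results was not tested.

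The list of intracellular pathway genes had lower medians at day 3 than the other pathway lists, a difference that was not tested. *Smad7* is counted among the 9 genes and not in this list. Of 22 SMAD transducers, co-repressors and turnover factors 7 were higher and 1 lower in si*Wdr5* at day 3, 11 and 2 in si*Brca1*, and 1 and 0 in si*Bard1*, with medians of 0.20, 0.26 and 0.09. Of all genes 18.3%, 25.4% and 8.67% were higher in the same order, so the share of this list in si*Bard1* was below that of all genes. The inhibitory *Smad6* rose by 1.07, 1.40 and 0.65 (limma, all passed), *Smurf1*, a ubiquitin ligase that works with SMAD7, by 0.49 in si*Wdr5* and 0.62 in si*Brca1*, and *Nedd4l*, a ubiquitin ligase for activated SMADs, by 0.44 and 0.59. *Pmepa1*, a feedback inhibitor that also belongs to the list of responsive genes, rose by 0.84 and 1.07, and its 0.36 in si*Bard1* did not pass (adjusted p = 0.125).

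Of 30 genes known to respond to TGF-β in fibroblasts, 27 were higher in si*Wdr5* at day 3, 25 in si*Brca1* and 16 in si*Bard1*. None was lower, and the medians were 1.10, 0.97 and 0.45. Among all genes 18.3%, 25.4% and 8.67% were higher and 16.8%, 21.8% and 5.87% lower. *Ctgf*, a matricellular protein, went from 29.8 and 42.2 CPM in the nt control to 234 and 417 in si*Brca1*, with log2-fold changes of 2.41, 3.14 and 1.82. The contractile genes *Acta2* and *Cnn1* rose by 1.71, 2.44 and 1.42 and by 1.91, 2.19 and 1.43 (limma, all passed). The list shares *Thbs1* with the activators, *Pmepa1* and *Skil* with the intracellular genes, and 3 collagen and matrix genes with the fibroblast markers. In the nt control 16 of the 30 were lower at day 6 than at day 3 and 5 were higher, with a median of −0.55, against 27.1% lower and 19% higher of all genes. Of 6 skeletal muscle markers, *Myod1*, *Myog*, *Ckm* and *Pax7* were not in the table, and *Des* and *Acta1* summed to 40.5 to 52.2 CPM in the nt control at day 3, 186 to 188 in si*Wdr5*, 251 to 277 in si*Brca1* and 113 to 143 in si*Bard1*. Their part in the rise of contractile genes was not tested.

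**Figure D4:**
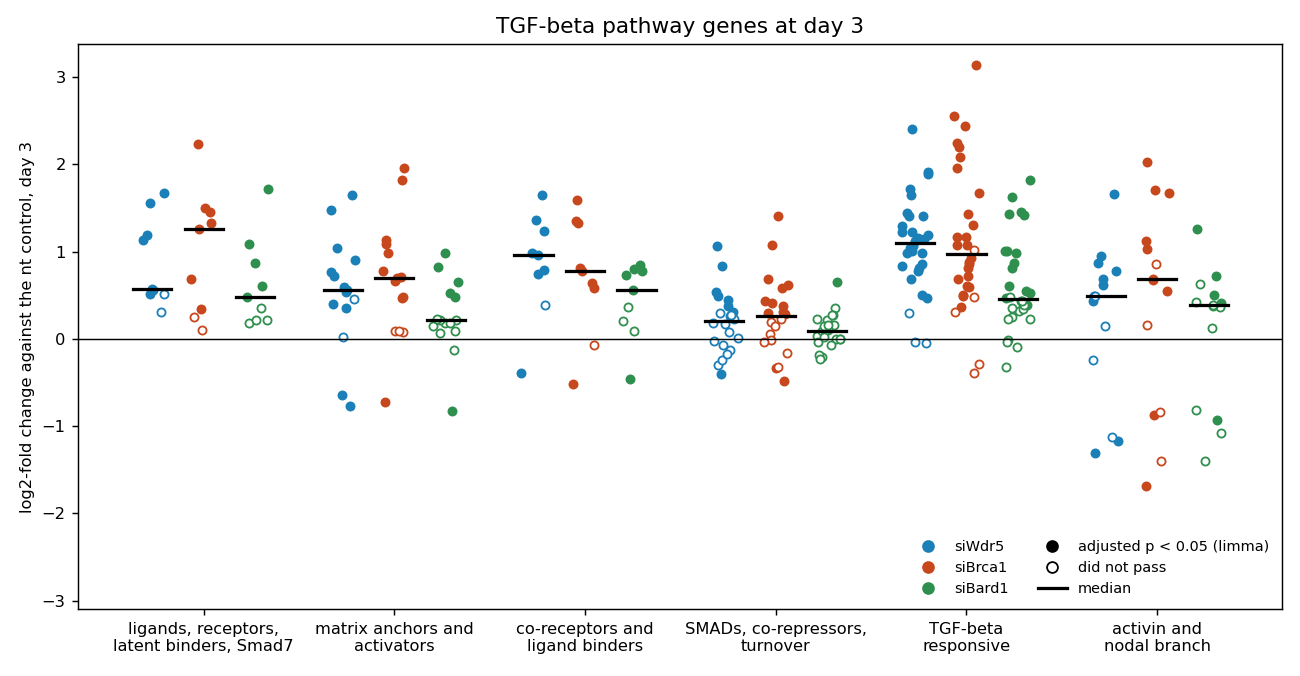
Log2-fold change against the nt control at day 3 (y axis) of each tested gene of 6 lists (x axis), with a line at the median of each list and knockdown. Filled points passed adjusted p < 0.05 (limma). The medians of the responsive genes are 1.10, 0.97 and 0.45 in si*Wdr5*, si*Brca1* and si*Bard1*, and those of the SMADs, co-repressors and turnover factors 0.20, 0.26 and 0.09.

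The activin and nodal branch signals through the same SMAD2 and SMAD3. Of 14 genes tested 8 were higher and 2 lower in si*Wdr5* at day 3, 8 and 2 in si*Brca1*, and 4 and 1 in si*Bard1*. The medians were 0.49, 0.68 and 0.38. Across all genes 18.3%, 25.4% and 8.67% were higher and 16.8%, 21.8% and 5.87% lower. The lower genes of this list were thus below that share in si*Wdr5* and si*Brca1* and near it in si*Bard1*. *Inhba*, the βA subunit of activin, had 66.2 and 69.5 CPM in the nt control libraries and 238 and 319 in si*Brca1*, with rises of 1.66, 2.02 and 1.26 (limma, all passed). *Gdf15*, a stress-induced TGF-β family cytokine, rose by 0.95 in si*Wdr5* and 1.67 in si*Brca1*, and its 0.63 in si*Bard1* did not pass (adjusted p = 0.0733). *Nodal*, which acts in the pluripotent state, was low at 1.79 and 1.85 CPM in the nt control and lower in si*Wdr5* (−1.17) and si*Brca1* (−1.69), and its −1.08 in si*Bard1* did not pass (adjusted p = 0.0666). The activin receptor *Acvr2b* fell in each, by 1.31, 0.87 and 0.93.

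At day 6 most list genes that passed were in si*Wdr5*, as were those of the 9 genes. There 8 of the 15 anchors and activators were higher and 2 lower, 4 and 0 of the 9 co-receptors and binders, 9 and 0 of the 22 intracellular genes, 23 and 4 of the 30 responsive genes, and 4 and 1 of the 14 activin and nodal genes (medians 0.44, 0.51, 0.22, 1.05 and −0.085), against 16.1% higher and 5.7% lower of all genes. In si*Brca1* 0 genes of any list passed (limma), although 15 of the 30 responsive genes and 4 of the 15 anchors had an unadjusted p under 0.05, and limma-voom passed 0 genes in the whole table. In si*Bard1* 1 anchor, *Fbn2* (1.38), which encodes fibrillin 2, and 1 responsive gene, *Tgfbi* (1.13), a matrix protein named for its induction by TGF-β, were higher. At day 3 *Tgfbi* had instead been below the nt control (108.6 to 112.5 CPM) in si*Bard1* (80.9 to 96.1) and si*Brca1* (82.2 to 99.6), without passing as lower. In si*Wdr5* at day 3 it was above, at 181 to 199 CPM. The day 6 change in si*Brca1* was below the day 3 change, by the interaction test, for 8 of 15 anchors and activators, 2 of 9 binders, 2 of 22 intracellular genes, 7 of 30 responsive genes and 6 of 14 activin and nodal genes, and above it for 0, 0, 1, 1 and 1, against 10.3% of all genes in either direction. The intracellular genes were near that share.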

How the data were processed

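RNA of 16 libraries (8 groups of 2, grouped by siRNA and day per the labels) was depleted of ribosomal RNA and sequenced paired-end. The authors aligned the reads with STAR 2.5.2b to mm10 and computed log-CPM with edgeR 3.20.9. The deposited log2 CPM cover 18990 genes and include a scaling of the libraries and a prior of 1.57 to 3.57 reads. The counter, annotation and low-count filter are not given in the sources used here. The authors' own calls used DESeq2 and are not used.

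Whole reads were recovered from the values (100% within 0.01 below 10000 reads). The 14028 genes whose log2 CPM averaged 0 or more were tested with limma 3.58.1 in R 4.3.3, on the 8 libraries of a day with 1 mean per group and a trend on expression. The day 3 to day 6 change of the nt control and the interactions were fitted in all 16 libraries. P-values are two-sided and Benjamini-Hochberg adjusted over all genes tested, and a gene passed at adjusted p < 0.05. They rest on the spread between the 2 libraries of a group, which come from independent experiments. That spread was pooled over the groups of a fit and moderated across genes. The fit was tested on simulated data.

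The genes, lists and comparisons were chosen with earlier results of these data known. Named beside the 9 genes are the siRNA targets, the 3 nearest genes to each ligand, and from each of 5 pathway lists up to 4 genes with the largest mean absolute day 3 change among those that passed in a knockdown. One gene of that rule is not reported here. *Dcn*, *Fbn2* and *Tgfbi* were named after their values were seen. The alternatives left out the filter or raised it to 2, and used other sample sets, no trend, a pseudocount of 1 CPM, centring, quantile normalization, limma-voom on recovered reads, the replicate number as a block, a log2-fold change threshold of 1, and leaving out each library. Coordinates and transcript lengths come from GENCODE vM21 (mm10), which places *Tgfb1* at chr7:25687002-25705077, *Tgfb2* at chr1:186622792-186705989, *Tgfb3* at chr12:86056745-86079041, *Tgfbr1* at chr4:47353222-47414931, *Tgfbr2* at chr9:116084293-116175360, *Tgfbr3* at chr5:107106570-107289629, *Ltbp1* at chr17:75005568-75392512, *Ltbp2* at chr12:84783212-84876532 and *Smad7* at chr18:75367529-75395935. Expression values are over all exons of a gene.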

Additional observations from a re-analysis of the deposited data

Results flagged for a closer look

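In 3 of the 9 genes the change in si*Brca1* differed between the days by the test of the difference itself (limma, interaction over 16 libraries). *Tgfb1* had a day 6 change below its day 3 change by −1.11 on the log2 scale (adjusted p = 0.0215, from 0.00491 to 0.123 over the alternatives). For *Tgfb3* the difference was −1.02 (adjusted p = 0.0121, from 0.00415 to 0.0725), and for *Smad7* −1.09 (adjusted p = 0.00898, from 0.00262 to 0.0544). Each was lost without si*Brca1* day 3 replicate 2, and the cause was not tested.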

How the results depend on the processing

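Counts of the 9 genes that passed are given as si*Wdr5*, si*Brca1* and si*Bard1* against the nt control. With a log2-fold change above 1 they were 4 and 2 in si*Wdr5* and si*Bard1* at day 3, 4 in si*Wdr5* at day 6, 1 in the nt control over time, and 0, 1 and 0 in the pairs si*Brca1* against si*Wdr5*, si*Brca1* against si*Bard1* and si*Wdr5* against si*Bard1*. Without the trend, si*Bard1* at day 3 had 3 and the pairs 0, 0 and 0. With all 16 libraries in 1 fit, si*Brca1* and si*Bard1* at day 6 had 1 and 2, and the last 2 pairs 2 and 0. With only the compared groups, the nt control over time had 4 and si*Brca1* against si*Bard1* 2. Without a filter, si*Brca1* against si*Wdr5* had 1 and si*Wdr5* against si*Bard1* 0, and after quantile normalization the latter had 1.

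Replicate numbers are shared between groups, but the deviations of same-numbered libraries had a mean r across genes of 0.02 at day 3 (−0.093 to 0.072 over the pairs of groups) and 0.11 at day 6 (−0.070 to 0.26), so that they were taken to share only a number. With the replicate block the counts were 8, 7 and 6 at day 3, 7, 0 and 2 at day 6, and 2, 5 and 2 in the pairs. The 2 in si*Bard1* at day 6 were *Tgfb3* and *Ltbp1*. Over all genes the block gave 48 in place of 11 there.

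Leaving out 1 library gave 6 to 7 genes in si*Wdr5*, 6 to 8 in si*Brca1* and 3 to 5 in si*Bard1* at day 3, 1 to 7, 0 and 0 to 2 at day 6, 2 in the nt control over time, 0 to 4 in the si*Brca1* interaction and 0 in the 2 others, and 0 to 4, 0 to 5 and 0 to 2 in the pairs. A lone library was assumed to vary like the other groups. How many of all genes passed with 1 library left out was not counted, so these counts have no share of all genes beside them.

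Signs turned only where the change had not passed. *Tgfb1* in si*Bard1* at day 6 became −0.065 when centred, −0.058 when quantile-normalized and −0.012 with limma-voom, and ran from −0.15 to 0.17 with 1 library left out. With 1 library left out, *Tgfb1* ran from −0.031 to 0.40 in si*Bard1* at day 3 and from −0.18 to 0.49 in si*Brca1* at day 6, and *Tgfbr1* in si*Brca1* from −0.070 to 0.27 at day 3 and from −0.21 to 0.53 at day 6. In the nt control over time *Tgfb2* became 0.00083 and *Tgfbr2* 0.18 when quantile-normalized, *Tgfbr2* became 0.022 when centred, and with 1 library left out *Tgfbr2* ran from −0.17 to 0.11, *Tgfbr3* from −0.029 to 0.18 and *Ltbp2* from −0.071 to 0.20. The cause was not tested. With 2 libraries per group, a change that did not pass is not shown to be absent.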
